A study of Homo sapiens with 15 samples.

Results

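The cells examined here were A549 cells, an established human lung adenocarcinoma line, transfected with an LNA-modified antisense oligonucleotide (antagomir, "miRCURY KD") against miR-574-3p. Their RNA was the Cy3-labeled sample on 3 arrays of a series of 15. It was set against the Cy3-labeled RNA of A549 cells that had received the antagomir against another miRNA, on 12 arrays, with 3 arrays for each of 4 miRNAs (miR-629*, miR-181d, miR-766, miR-565). The 3 arrays were chosen by their labels alone. Every group carried an oligonucleotide at 20 nM for 24 h. Mock-transfected and untransfected cells were not analysed here, so the baseline is cells with an antagomir against another miRNA. On the same arrays the Cy5-labeled RNA came from cells given the precursor oligonucleotide of the respective miRNA ("miCENTURY OX miNatural"), and this channel served as a check. Replicate numbers are given in the labels without saying whether the arrays hold separate transfections, so that the p-values measure the spread between these arrays, which may be technical.

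A miRNA guides an Argonaute protein to messenger RNAs through base pairing, mainly of its seed at the 5′ end, and lowers the stability and translation of these messages. An antagomir is complementary to the miRNA and blocks it, so that messages held down by that miRNA can rise. ERH, the gene that the study pursued, encodes a small nuclear protein connected to splicing and to mitosis.

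The mature sequences of the miRNAs are shown because the antagomirs are directed against them. They come from RefSeq (GRCh38.p14), which gave 3 of the 5, and miR-565 and miR-766 are named only. Capitals mark the seed, bases 2 to 8.
hsa-miR-574-3p: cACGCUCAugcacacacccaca
hsa-miR-181d-5p: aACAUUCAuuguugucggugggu
hsa-miR-629-3p (miR-629*): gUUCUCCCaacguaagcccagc
The miR-574-3p sequence lies at chr4:38868092-38868113 on the plus strand. The 3 seeds differ from each other. The letters TGAGCGT, which pair with the whole miR-574-3p seed, were searched in the strand of the array probes that reads as the message. They stood in 47 of the 30174 probes tested (0.156%), in 2 of the 1288 probes with higher signals (0.155%) and in 2 of the 1421 with lower signals (0.141%). The probes have 60 bases, so this search left out nearly all of each message.

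The values are processed Cy3 signals (arbitrary units), from which the scanner software had taken the background before balancing both dyes of an array, and which were quantile normalized here across the 15 Cy3 channels. Signals of different probes cannot be compared as RNA levels. Between 68.8% and 73.0% of the probes of an array were well above background in Cy3, no spot was saturated, and any 2 Cy3 arrays correlated with at least 0.99 over the probes tested. The number of arrays limits the precision. Of the markers fixed for A549 and other cells, all 15 epithelial markers were measured, with mean signals of 71490 for KRT8 and 126200 for AKR1B10 in the miR-574-3p antagomir cells. The surfactant protein gene SFTPB of alveolar cells read 7.62. PTPRC, CD3D, COL3A1, LUM, PECAM1 and HBB, markers of leukocytes, fibroblasts, endothelium or erythroid cells, were not well above background on any array. Still, 5 of 10 leukocyte, 3 of 10 fibroblast, 3 of 7 endothelial and 3 of 6 erythroid markers had a tested probe. In such bulk RNA, fewer cells of a kind and less RNA per cell cannot be told apart.

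Most genes hardly differed between the miR-574-3p antagomir cells and the cells with other antagomirs. Of 22114 genes tested, each read from its brightest probe, 82.3% had a log2 difference within 0.2 of 0, and the median over all genes was 0.0093. At an adjusted p under 0.05 (limma, Benjamini-Hochberg), 1016 genes were higher (4.59%) and 973 lower (4.4%) in the miR-574-3p antagomir cells. The called genes had a median absolute log2 difference of 0.28. A difference of 2-fold or more, with a signal of at least 20 in the higher group, was found for 34 genes in the upward direction (0.154%) and for 20 in the downward direction (0.0904%). Without reference to a test, the 3 arrays lay above all 12 others for 873 of 22075 genes (3.95%) and below all of them for 577 (2.61%). Against each of the 4 other miRNAs taken singly, 1005 of the 1016 higher genes and 925 of the 973 lower genes kept their sign. Among single arrays left out, those of miR-574-3p lowered the calls most, with 632 higher genes left without replicate 2 and 585 lower genes without replicate 3. The slide as a fixed block, fitted without the miR-766 arrays, left 454 and 487. Without the miR-766 arrays but with no block, 1098 genes were higher and 1219 lower.

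**Figure D1:**
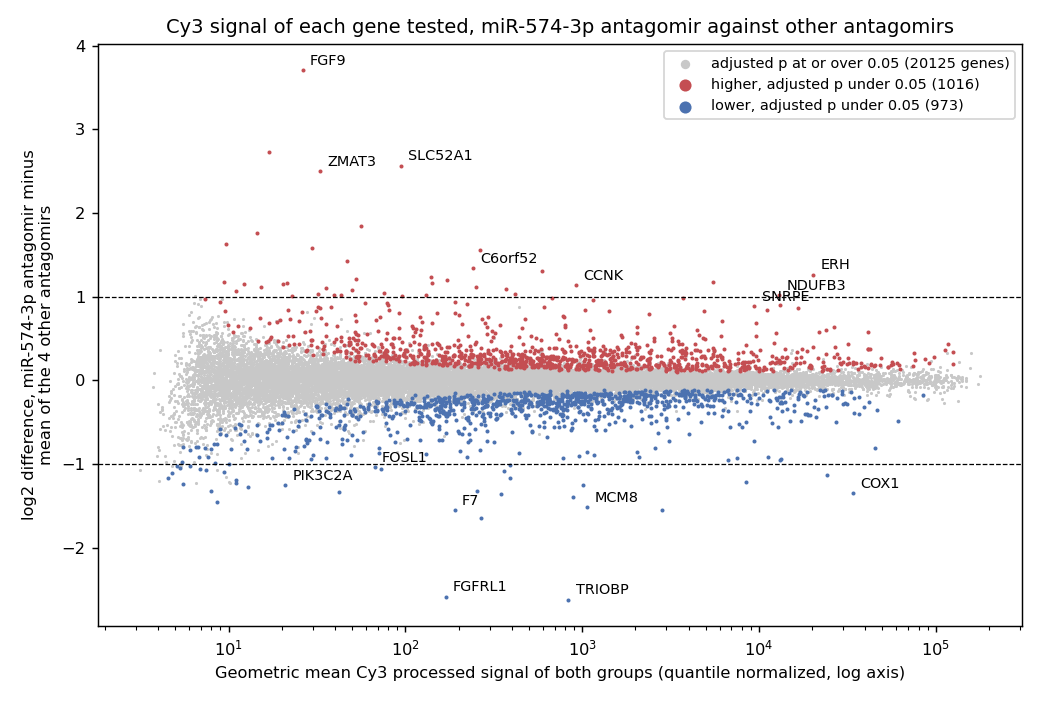
Log2 difference of the Cy3 signal (miR-574-3p antagomir minus the mean of the 4 other antagomirs, vertical axis) against the geometric mean Cy3 signal of both groups (log axis), 1 point per gene. Red points are the 1016 higher and blue points the 973 lower genes, the dashed lines mark 2-fold, and FGF9, SLC52A1 and ZMAT3 stand highest while TRIOBP and FGFRL1 stand lowest among the labeled genes.

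The probes of the 34 genes higher by 2-fold or more were mostly dim. Their median signal in the cells with other antagomirs was 37.1, against 292 over all genes tested, and 23 of them were under 100. RefSeq symbols were matched for 15 of the 34, and the rest carried other array names or probe numbers. The groups did not overlap for 31 of them, and 17 were at least 2-fold higher against each of the other miRNAs taken singly. Replicates 1 and 2 of miR-574-3p lay on the slide of miR-565 replicates 2 and 3 (slide 2), and replicate 3 lay with the miR-629* arrays (slide 3). Compared within these slides, 32 of the 34 were higher on both.

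ERH was higher on all 3 miR-574-3p arrays than on any other array. Its probe (chr14:68916670-68916729, NCBI36, minus strand) read 30510, 31780 and 31580 on the 3 miR-574-3p arrays, and 11890 at the lowest, 12840 at the median and 15970 at the highest of the 12 others. The 3 arrays were close to each other. ERH was 2.40-fold higher (log2 difference 1.26, standard error 0.050, limma adjusted p = 1.29e-10). Against single miRNAs the log2 difference ran from 1.12 (miR-766) to 1.34 (miR-181d), and it was 1.32 on slide 2 and 1.29 on slide 3. Among the 7 genes listed as partners of ERH, PCBD1, an enzyme of pterin recycling, was higher by 0.16 (log2, limma adjusted p = 0.00808), and the other 6 were not called. The median over these partners was 0.022.

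Of the 8 candidate targets, which the study had selected on these same arrays and which are therefore not independent evidence, 5 were higher by 2-fold or more. SLC52A1 (GPR172B on the array), a riboflavin transporter of the cell surface, read 234, 215 and 234 with the miR-574-3p antagomir. The other arrays read from 26.6 over a median of 37.1 to 57.6, well apart from these. SLC52A1 was 5.92-fold higher (log2 difference 2.57, standard error 0.12, limma adjusted p = 1.29e-09).

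ZMAT3, a zinc finger protein that binds RNA and is induced by p53, read 79.8, 73.5 and 79.7 with the miR-574-3p antagomir. The 12 other arrays had 10.3, 13.5 and 17.9 as lowest, median and highest values. All 3 arrays were above every other array, at a fold of 5.64 (log2 difference 2.50, standard error 0.13, limma adjusted p = 1.76e-09). ZYG11A, a member of the ZYG11 family of substrate receptors for a ubiquitin ligase, stood at 251, 270 and 264 against 101 to 131, with a log2 difference of 1.20 (standard error 0.071, limma adjusted p = 1.38e-08).

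SLC34A1, a sodium-phosphate cotransporter known from the kidney, was close to background. It read 36.1, 26.4 and 16.9 on the miR-574-3p arrays, and the highest of the others read 14.1, while only 5 of these 12 were well above background. Its log2 difference was 1.76 (standard error 0.30, limma adjusted p = 0.00107), and it was 2.54 on slide 2 but 0.73 on slide 3. With normexp it was 0.34, and the size of this rise is uncertain as well. The 3 remaining candidates were dim and their groups overlapped. PRDM7, a germ cell histone methyltransferase, differed by 0.65 (log2, limma adjusted p = 0.0986), TEX38, a testis-expressed gene, by 0.42 (limma adjusted p = 0.386), and AQP7, a channel for water and glycerol, by 0.086 (limma adjusted p = 0.844). For each of these 3 genes the difference was positive on slide 2 and negative on slide 3.

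FGF9, a fibroblast growth factor, had the largest fitted rise of all named genes, over a baseline that was mostly not above background. The miR-574-3p arrays read 137, 111 and 39.4, whereas the other 12 read between 2.36 and 14.7 with a median of 6.91. The groups were apart, but the 3 arrays spread widely, and the gene was well above background on only 3 of the 12 other arrays. Its log2 difference was 3.70 (13.0-fold, standard error 0.39, limma adjusted p = 9.60e-06). The value was 4.96 on slide 2 and 2.41 on slide 3. With normexp, whose offset compresses dim signals, it was 1.13, below the 1.57 of SLC52A1 there, so that the size of the FGF9 rise and its rank are uncertain.

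C6orf52, an open reading frame whose function is not established, rose on both of its probes. The brighter one read 382, 372 and 391 against 127 to 200 on the other arrays (log2 difference 1.34, standard error 0.064, limma adjusted p = 1.25e-09), and the dimmer one differed by 1.22 (limma adjusted p = 9.31e-07). CCNK, the cyclin that partners CDK12 and CDK13 in transcription elongation, read 1328, 1359 and 1384 against 537 to 770, a log2 difference of 1.14 (standard error 0.043, limma adjusted p = 1.05e-10). Its second probe rose by 0.33 only (limma adjusted p = 0.00799).

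H2BC26 (HIST3H2BB on the array), a replication-type histone H2B gene, read 7487, 8411 and 8789 against 3054 to 4537. Its log2 difference was 1.17 (standard error 0.081, limma adjusted p = 7.43e-08), but its other probe differed by -0.093 (limma adjusted p = 0.301), so that the probes of this gene disagreed. NDUFB3, an accessory subunit of respiratory complex I, read 18000, 18190 and 19420 against 8585 to 10570. It was 2.02-fold higher (log2 difference 1.02, standard error 0.048, limma adjusted p = 1.25e-09).

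Further genes past 2-fold were ARHGEF15, NECAB1 and SLC6A19, and replicate 1 read highest for each of them. ARHGEF15, an exchange factor for small GTPases, read 711, 386 and 285 against 76.7 to 219 (log2 difference 1.56, limma adjusted p = 0.000184), with its dim second probe at -0.095 (limma adjusted p = 0.896). NECAB1, a neuronal calcium-binding protein, read 42.9, 31.9 and 22.4 against 11.6 to 18.3 (log2 difference 1.17, limma adjusted p = 0.000405). SLC6A19, a transporter of neutral amino acids, read 673, 555 and 558 against 252 to 345 (log2 difference 1.03, limma adjusted p = 1.08e-07), and this gene was chosen after its values were seen. DOK6, an adaptor of receptor tyrosine kinases, is given for the opposite reason. It passed the thresholds with a log2 difference of 1.08 (limma adjusted p = 0.0155), while its arrays at 101, 90.2 and 31.0 overlapped the others and the difference on slide 3 was -0.39.

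**Figure D2:**
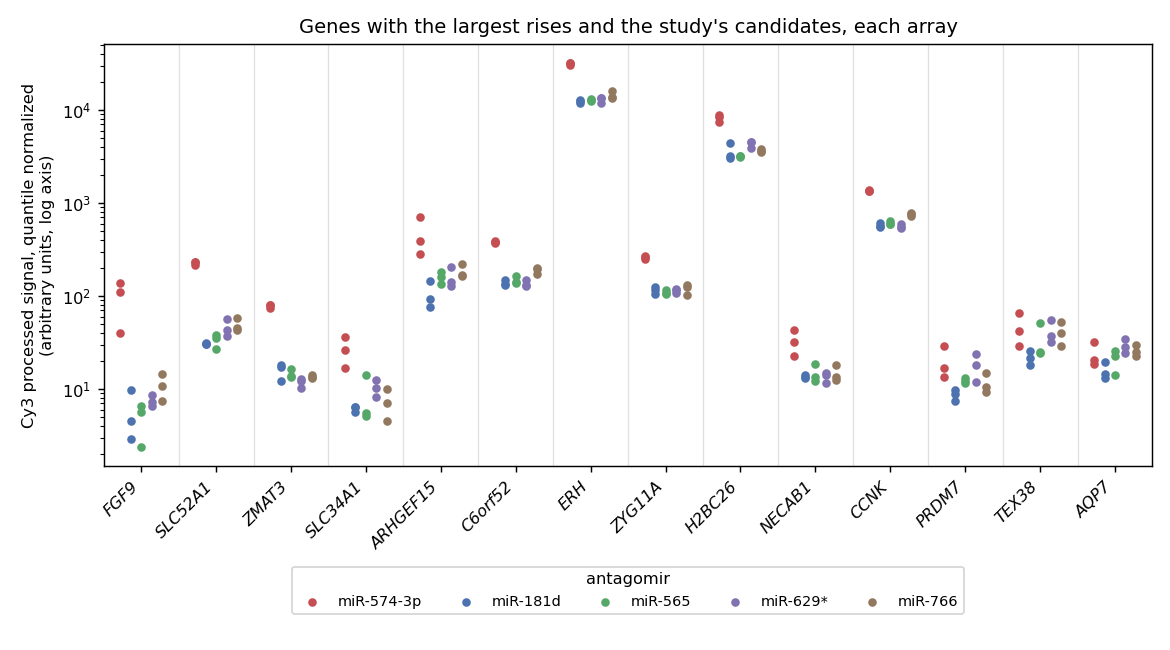
Cy3 processed signal (quantile normalized, log axis) on each of the 15 arrays, 1 point per array colored by antagomir, for the largest rises and the candidate targets of the study. The 3 miR-574-3p points lie above all others for FGF9 through CCNK, as the rule for the largest rises required. They are close together for ERH (30510 to 31780) and wide apart for FGF9 (39.4 to 137), and they overlap the others for PRDM7, TEX38 and AQP7.

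The probes of the 20 genes lower by 2-fold or more had a median signal of 559 in the cells with other antagomirs, and 3 were under 100 there. Without miR-574-3p replicate 1 the count was 36. RefSeq symbols were matched for 13 of them. The groups did not overlap for 18, 13 were at least 2-fold lower against each other miRNA taken singly, and all 20 were lower on both slide 2 and slide 3.

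Among the genes with a symbol, TRIOBP and FGFRL1 fell most. TRIOBP, which bundles and stabilizes actin filaments and binds the exchange factor TRIO, read 379, 318 and 316 with the miR-574-3p antagomir (chr22:36498573-36498632, NCBI36). The other 12 arrays read 1835 at the lowest, 2102 at the median and 2304 at the highest, so that the groups were far apart. TRIOBP was 6.16-fold lower (log2 difference -2.62, standard error 0.066, limma adjusted p = 5.74e-13). Its other probes gave smaller differences, with -0.82 (limma adjusted p = 2.54e-08) and -0.34 (limma adjusted p = 0.419).

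FGFRL1, a receptor of the fibroblast growth factor family that lacks the kinase domain, read 75.8, 64.8 and 66.3 against 344, 433 and 453 as lowest, median and highest of the others. It was 6.02-fold lower (log2 difference -2.59, standard error 0.053, limma adjusted p = 4.67e-14), and a dimmer probe of the gene differed by -0.69 (limma adjusted p = 0.00630). Both slides gave the same value for the brighter probe within the standard error, with -2.66 on slide 2 and -2.67 on slide 3.

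MCM8, a helicase of homologous recombination, fell on both of its probes. The brighter one read 675, 619 and 599 against 1602 to 1998 (log2 difference -1.52, standard error 0.047, limma adjusted p = 1.01e-11), and the other one differed by -1.74 (limma adjusted p = 1.05e-10). F7, coagulation factor VII, read 135, 109 and 91.9 against 296 to 360 (log2 difference -1.55, standard error 0.082, limma adjusted p = 2.96e-09). The second F7 probe was not well above background on any miR-574-3p array.

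FOSL1, the AP-1 subunit Fra-1, fell on both of its probes as well. The brighter probe read 45.4, 47.2 and 46.9 against 75.2 to 129 (log2 difference -1.04, standard error 0.084, limma adjusted p = 4.36e-07). The dimmer probe was not well above background on any of the 3 miR-574-3p arrays, and the signal there was at least 3.16-fold lower, taking the lowest signal well above background on an array as its limit (limma adjusted p = 1.25e-05).

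The groups also did not overlap for the other named falls, since the largest falls were named only from genes without overlap. UBLCP1, a phosphatase of the proteasome, read 166, 166 and 150.0 against 325 to 432 (log2 difference -1.32, limma adjusted p = 1.29e-09). ARHGAP35 (GRLF1 on the array), the GTPase-activating protein p190A, read 732, 614 and 617 against 1344 to 1689 on its brightest probe (log2 difference -1.26, limma adjusted p = 1.29e-09). Its other probes differed by 0.11 and -0.30 and were not called, so that this fall rests on 1 of 3 probes.

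PIK3C2A, a class II phosphoinositide kinase of membrane traffic, read 15.1, 12.3 and 13.1 against 26.4 to 43.4 (log2 difference -1.26, limma adjusted p = 2.26e-07). ZNF213, a zinc finger protein, differed by -1.17 (limma adjusted p = 5.92e-09) and CYP2S1, a cytochrome P450 of the airway epithelium, by -1.09 (limma adjusted p = 1.41e-10). TANGO2 (C22orf25 on the array), linked to heme handling and lipid metabolism, differed by -1.06 (limma adjusted p = 8.96e-07), with a second probe at -0.18 that was not called. MATCAP1, which trims tyrosine from tubulin, differed by -1.02 (limma adjusted p = 1.29e-09), and its dim second probe at 0.24 was not called.

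**Figure D3:**
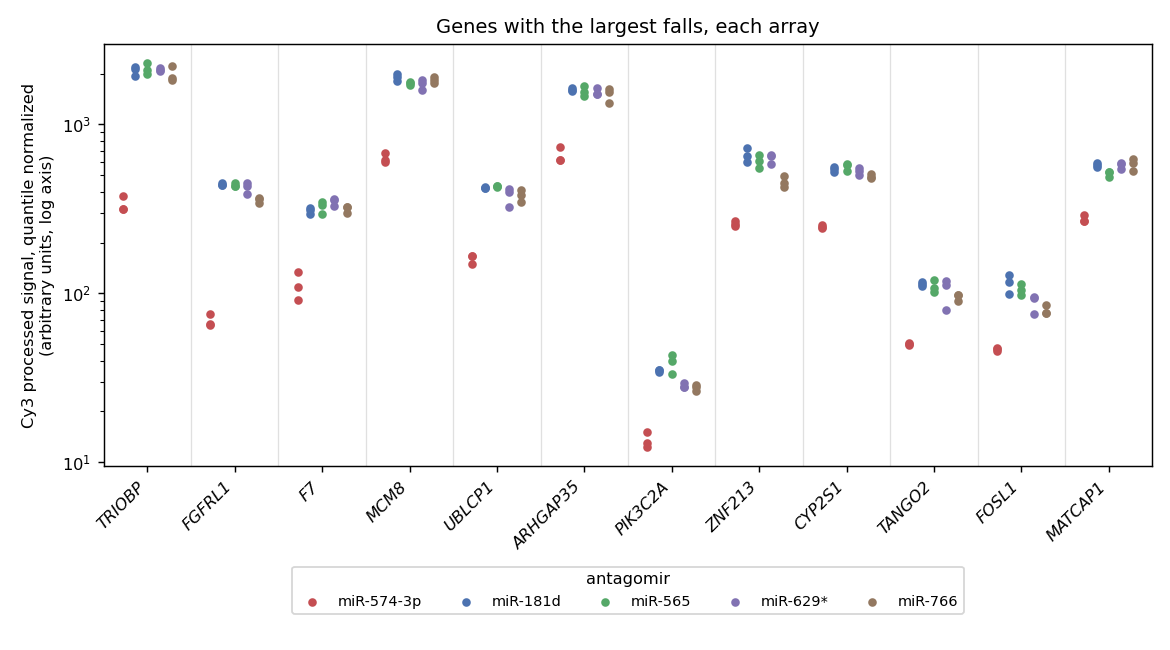
Cy3 processed signal (quantile normalized, log axis) on each of the 15 arrays, 1 point per array colored by antagomir, for the largest falls. For every gene shown the 3 miR-574-3p points lie below the 12 others, as the naming rule required, with TRIOBP at 316 to 379 against 1835 to 2304.

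The brightest probe did not always carry the difference. Over all probes, 39 were higher and 32 lower by 2-fold or more, and 17 of these 71 were not the brightest of their gene. For 8 of the 17, the brightest probe was called in the same direction, and for 4 of them it also reached 2-fold. Conversely, of the 15 genes at 2-fold with several probes tested, 6 were called in the same direction on every other probe.

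These probes were chosen after their values were seen. SLC31A1, a copper importer, had a probe at -1.61 and a brighter one at -0.74 (limma adjusted p = 6.12e-08). MYD88, an adaptor of Toll-like receptors, had one at -1.51 and a brighter one at -0.93 (limma adjusted p = 1.40e-08). LLPH, a nucleolar protein, had one at 1.38 and a brighter one at 0.64 (limma adjusted p = 3.82e-08). In contrast, BRWD3 had a probe at -1.79 while the brighter one stood at 0.066 (limma adjusted p = 0.407), and SLC25A37, which imports iron into mitochondria, had one at -1.29 against -0.052 (limma adjusted p = 0.547).

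Transcripts of the mitochondrial genome formed a group that was noticed after the values were seen. This genome encodes core subunits of the respiratory chain, and most of its messages are cut from one long transcript, whereas the ND6 message is transcribed from the opposite strand. On the array, 19 tested probes lay on the mitochondrial genome by their listed position or by the RefSeq chromosome of their gene. Of these, 12 were lower and 1 was higher in the miR-574-3p antagomir cells (limma, adjusted p under 0.05). Beside these stand 1421 lower and 1288 higher among all 30174 probes tested. Among genes, each read from its brightest probe, 4.4% were lower and 4.59% higher. All 12 lower probes were among the 16 listed on the plus strand, where the median log2 difference was -0.91, and all 12 were lower on both slide 2 and slide 3. The 3 probes on the minus strand, named ND6, AF271776 and TMEFF2 on the array, had differences of 0.25 to 0.36.

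CYTB, cytochrome b of complex III, read 8969, 8020 and 8534 on the probe at positions 15588 to 15646 (NCBI36), against 13080, 17590 and 22670 as lowest, median and highest of the other arrays. It was lower by 2.07-fold (log2 difference -1.05, standard error 0.053, limma adjusted p = 1.83e-09), and its brighter probe differed by -0.94. ND1 and ND2, subunits of complex I, differed by -0.72 (limma adjusted p = 1.00e-08) and -0.90 (limma adjusted p = 1.83e-09), and a probe that the files describe as ND5 by -0.90 (limma adjusted p = 1.01e-08). None of these overlapped between the groups. The ND2 arrays read 904, 829 and 825 against 1316 to 1780.

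COX1, the catalytic subunit of complex IV, differed by -1.35 (standard error 0.21, limma adjusted p = 0.000409). Its arrays at 16250, 20600 and 25240 overlapped the others, which ran from 20010 to 79660, and the files place this probe on chromosome 1, at positions 557430 to 557489, although the gene is mitochondrial. The deepest fall, -1.65, was that of an unnamed transcript at positions 11342 to 11402, and a neighboring probe at 11432 to 11491 differed by -1.55. That neighboring probe is named AK097322, and the other AK097322 probe, at 10861 to 10919, differed by -0.17 and was not called (limma adjusted p = 0.0603). The 2 probes of AY029066 also disagreed, with -1.43 at 2403 to 2462 and an uncalled -0.086 at 2938 to 2997. ND3, a further complex I subunit on the plus strand, was not called, with 0.14 (limma adjusted p = 0.0581) and 0.096 (limma adjusted p = 0.429) on its probes. On the minus strand, ND6 differed by 0.25 (limma adjusted p = 0.201).

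Of 75 nuclear genes of the respiratory chain, 9 were higher (12% beside 4.59% of all genes), 1 was lower (1.33% beside 4.4%) and 65 were not called, and their median was 0.025 beside 0.0093 over all genes. Beyond NDUFB3, the largest rise was that of NDUFA1, another accessory subunit of complex I, at 29840, 29000 and 30020 against 18160 to 21030 (log2 difference 0.60, limma adjusted p = 3.19e-08). ATP5PO and COX6C, subunits of the ATP synthase and of complex IV, rose by 0.37 each (limma adjusted p = 5.19e-06 and 1.05e-05). NDUFB4, of complex I, fell by 0.14 (limma adjusted p = 0.0222), with the opposite sign against 2 of the 4 other miRNAs.

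**Figure D4:**
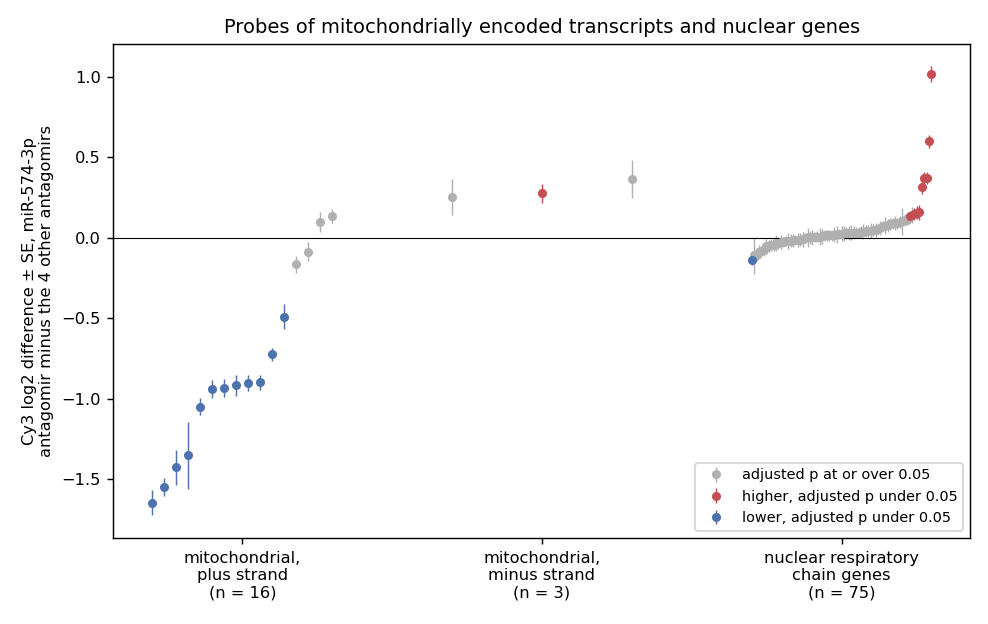
Cy3 log2 difference with its standard error for the 19 mitochondrial probes (16 on the plus strand and 3 on the minus strand), and for 75 nuclear genes of the respiratory chain, sorted within each set. Most plus-strand probes lie between -1.65 and -0.72, while the nuclear genes center on 0.025 with NDUFB3 highest at 1.02.

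The shares called in the following lists stand beside 8.99% of all genes called in either direction, and none of these shares was tested against it. Called members were 90 in all, and 36 of them had several probes tested. Every other probe was called in the same direction for 13 of the 36 and no other probe for 20. For 12 of the 36 some other probe had the opposite sign, but none was called in the opposite direction.

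In the FGF list, FGF9 and FGFRL1 were the called members among 11 tested, and the median was -0.0063. Downstream of FGF and EGF receptors, the list of ERK feedback and immediate early genes had 3 of 23 called (13%), with FOSL2 higher by 0.37 (limma adjusted p = 0.00233) on 1 of its 4 probes, JUND higher by 0.19 (limma adjusted p = 0.0132) and FOSL1 lower. All 3 encode subunits of AP-1. The list of reported targets of miR-574-3p held 7 genes, with a median of 0.035. EP300, a histone acetyltransferase, was higher by 0.20 (limma adjusted p = 0.00631) and SMAD4, the common mediator of TGF-beta signals, by 0.21 (limma adjusted p = 0.0477). The second EP300 probe, at 0.11, was not called (limma adjusted p = 0.44). EGFR was lower by 0.15 (limma adjusted p = 0.0499), and the other 4 were not called.

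In the list of DNA replication and G1/S genes, 3 of 39 were called (7.69%). E2F1 was higher by 0.15 (limma adjusted p = 0.0132), and GINS1, a part of the replicative helicase, and PRIM1, the primase, fell by 0.27 and 0.17 (limma adjusted p = 0.00558 and 0.0211). PRIM1 differed by -0.42 against miR-629* and by 0.016 against miR-565, and its groups overlapped. In the list of mitosis and kinetochore genes, which bears on the known role of ERH, 1 of 35 was called (2.86%), AURKB, which fell by 0.15 (limma adjusted p = 0.0199). The differences of that list ran from -0.15 to 0.11.

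The p53 target list had 3 of 26 members higher (11.5%) and none lower, with ZMAT3, TP53INP1 at 0.24 (limma adjusted p = 0.0127) and FAS, a death receptor, at 0.22 (limma adjusted p = 0.0222). Its median was 0.033. Among 28 genes of the interferon and double-stranded RNA response, which transfected oligonucleotides can trigger, 2 were higher (7.14%) and none lower, among them IFIT2 by 0.20 (limma adjusted p = 0.0150), with a median of 0.055. Of 22 NF-kappaB and cytokine genes, 4 were lower (18.2%) and none higher. TNFRSF9, the receptor 4-1BB, had the largest fall of these, from a median of 46.3 to 31.2, 25.1 and 21.2 (log2 difference -0.93, limma adjusted p = 0.000304), while LIF, a cytokine, NFKB2, an NF-kappaB subunit, and TNFAIP2, a TNF-induced gene, fell by 0.18, 0.26 and 0.17. The second LIF probe had the opposite sign, at 0.55, and was not called (limma adjusted p = 0.213).

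SNRPE, a core Sm protein of the spliceosome, read 12680, 12630 and 13020 against 6248 to 7968 (log2 difference 0.88, limma adjusted p = 5.06e-09). In its list, 3 of 51 genes were higher (SNRPE, SNRPD2 and TRA2A) and 3 were lower (SNRPA, SF3A1 and PRPF8), 11.8% in all, with a median of 0.015. The other probes of TRA2A and SF3A1 were not called and had the opposite sign. Of 31 proteasome subunits, 4 were higher (12.9%) and none lower. They were PSMA5 at 0.63 (limma adjusted p = 3.03e-08), PSMA7 at 0.28, PSMA2 at 0.21 and PSMA6 at 0.18, all of them alpha subunits of the core particle, and the median of the list was 0.017.

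Of 74 cytosolic ribosomal protein genes, 5 were higher (RPL34, RPL15, RPL38 and RPL31 among them), 1 was lower, 8.11% in all, and the median was -0.0015. RPL34 rose most, by 0.37 (limma adjusted p = 5.78e-06), and was called on 2 of its 6 probes. The second probe of RPL15, at 0.018, was not called. In the list of clustered histone genes, which did not hold H2BC26, the called member of 18 was H2BC5, a histone H2B gene, at 0.71 (limma adjusted p = 4.47e-06). Its second probe stood at -0.027 (limma adjusted p = 0.827), and the difference was 0.27 against miR-629*. In the list of miRNA processing factors and Argonautes, AGO2, the slicing Argonaute, fell by 0.25 (limma adjusted p = 0.000265) and AGO3 by 0.33 (limma adjusted p = 0.00388), whereas TNRC6C, the scaffold of silencing, was higher by 0.30 (limma adjusted p = 0.00222), and 13 of 16 genes were not called.

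The list of actin regulators held TRIOBP, 5 further lower members and 1 higher member among 32 (21.9% called), with a median of -0.047. PFN1, profilin, fell by 0.24 (limma adjusted p = 0.00128), the filamin FLNA by 0.22, and TRIO, the partner of TRIOBP, by 0.26 (limma adjusted p = 0.00489), while its other probes, at 0.22 and -0.041, were not called. ROCK2, a kinase that promotes actomyosin contraction, rose by 0.26 (limma adjusted p = 0.0158). TMSB10, which binds free actin, was called lower with -0.39 (limma adjusted p = 0.00268), but this value came from the cells with the miR-629* antagomir, where the highest array read 104000. It differed by 0.017 against miR-766, by 0.031 against miR-565 and by 0.020 against miR-181d.

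In the epithelial-mesenchymal and matrix list, 4 of 38 genes were higher and 1 was lower (13.2% in all). SNAI2, the transcription factor Slug, read 85.0, 87.9 and 88.9 against 44.3 to 62.4 (log2 difference 0.72, limma adjusted p = 2.12e-05). SPARC, a matrix protein, was higher by 0.46, the junction proteins TJP1 and CLDN1 by 0.22 and 0.20 (with uncalled second probes at -0.13 and 0.077), and COL4A2, a basement membrane collagen, fell by 0.29 (limma adjusted p = 0.000264). In metabolism, HSD17B7 and SCD, of sterol and fatty acid synthesis, were higher by 0.25 and 0.17 and FASN and DHCR7 fell by 0.34 and 0.12, and 11.8% of the 34 members were called. The other probes of SCD were not called. Of 36 glycolysis and hypoxia genes, EGLN1, EGLN3, NDRG1 and HK1 were higher and GAPDH and PKM were lower, each by less than 0.2 (16.7% called). The second probe of NDRG1, at -0.20, and the other probes of EGLN1, at -0.053 and 0.018, were not called.

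Among 25 NRF2 antioxidant genes, 8% were called, with a median of 0.0030. TXN, thioredoxin, was higher by 0.18, with its second probe at 0.017 not called. FTH1, the heavy chain of ferritin, was higher by 0.33 (limma adjusted p = 0.00498), and 2 of its 4 other probes were called higher as well, at 0.38 and 0.25, while 2 were not called, at 0.052 and -0.12. A transcript named AY033611, at chr11:61488839-61488898 on the minus strand (NCBI36) and overlapping the FTH1 probe at chr11:61488852-61488911, was lower by 2-fold or more (log2 difference -1.14, limma adjusted p = 6.85e-08), so that overlapping probes went opposite ways. It was chosen after its values were seen. HSPA5, the endoplasmic reticulum chaperone BiP, was the called member of 32 genes of the unfolded protein and ATF4 list, at 0.25 (limma adjusted p = 0.0242), with its second probe at -0.021 not called. CRYAB, a small heat shock protein, rose by 0.44 (limma adjusted p = 0.000817), DNAJA1 by 0.11, and HSPB1 fell by 0.17 (limma adjusted p = 0.00602) among 27 chaperones (11.1% called). The other probes of DNAJA1, at 0.13 and 0.031, were not called. FARSA, of 20 aminoacyl-tRNA synthetases, fell by 0.17, NME2, of 12 pyrimidine synthesis genes, rose by 0.21, and the other 3 tested genes of riboflavin uptake and flavin synthesis beside SLC52A1 were not called.

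KRT7 and ALDH3A1, of 15 epithelial markers, fell by 0.20 and 0.17 (limma adjusted p = 0.0145 and 0.0492), with a median of -0.084 over the list. The summed signal of these 15 ran from 413100 to 457800 on the miR-574-3p arrays and from 424600 to 478700 on the others. Of the endothelial markers ESAM fell by 0.19, with its second probe at -0.068 not called. Of the leukocyte markers ITGAM was higher by 0.35, while none of 3 fibroblast and 3 erythroid markers tested was called. All arrays held RNA labeled as that of A549 cells, and whether any other cells were present was not tested.

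The Cy5 channel of the same arrays, from cells overexpressing the miRNAs, gave no calls. In the same contrast 0 probes passed an adjusted p of 0.05 in limma, and 813 of 22107 genes (3.68%) had an unadjusted p under 0.05. With the slide as a fixed block and without miR-766, 2357 genes were called, and 9 were called without miR-565 replicate 1. The Cy5 values were noisier, with a median residual SD of 0.20 (log2) against 0.11 in Cy3. Over the 34 genes higher in Cy3, the median difference was 1.17 in Cy3 and 0.059 in Cy5, and over the 20 lower genes it was -1.33 in Cy3 and -0.12 in Cy5. Because the genes were chosen on Cy3, a smaller difference in Cy5 is partly set by this choice.

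The difference between the channels was taken on each array, and the same miR-574-3p contrast of these differences was tested over the 15 arrays. It was called for 249 of 22107 genes (1.13%), among them 19 of the 34 higher genes and 17 of the 20 lower genes. This count was 1074 without miR-565 replicate 1 and 66, 61 and 79 without miR-574-3p replicate 1, 2 and 3. ERH differed by 0.050 in Cy5 (standard error 0.068), so that the channels differed by 1.21 (limma adjusted p = 5.05e-05). The channel difference was 2.52 for ZMAT3 (limma adjusted p = 6.05e-06) and 2.53 for SLC52A1 (limma adjusted p = 0.000575). For TRIOBP it was -2.45 (limma adjusted p = 2.64e-06) and for FGFRL1 -2.15 (limma adjusted p = 6.05e-06).

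Other genes, none of which was called in Cy5, differed in how clearly the channels were apart. FGF9 was at 1.04 in Cy5 (standard error 0.46), with a channel difference of 2.66 (limma adjusted p = 0.0493). ARHGEF15 was at 0.54 in Cy5, and its channel difference was not called (limma adjusted p = 0.219). DOK6 was at -1.04 in Cy5 and COX1 at 0.74, both opposite to Cy3. The channel difference was called for COX1, at -2.09 (limma adjusted p = 0.0259), but not for DOK6 (limma adjusted p = 0.311). Of the 19 mitochondrial probes, 5 were called in the channel difference, and the median over the 19 was -0.90 in Cy3 and -0.035 in Cy5. The dyes were not swapped, and the software had normalized each array between its dyes, so that a Cy3 signal also depends on the Cy5 sample hybridized with it, and the part of this dependence was not tested.

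**Figure D5:**
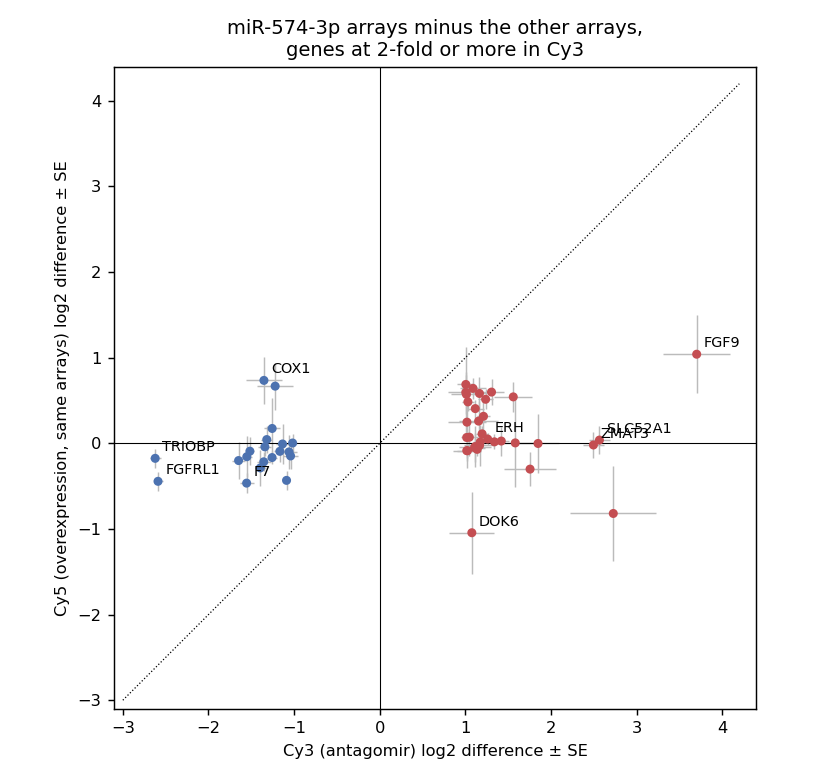
Log2 difference between the miR-574-3p arrays and the other arrays in Cy3 (horizontal axis) and in Cy5 (vertical axis), each with its standard error, for the 54 genes at 2-fold or more in Cy3. Red points (34 higher genes) and blue points (20 lower genes) lie mostly near 0 on the Cy5 axis and away from the dotted line of equal differences, with FGF9 at 3.70 and 1.04.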

How the data were processed

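RNA of A549 cells was measured on 15 dual-color Agilent whole human genome arrays, with the antagomir sample in Cy3. The authors deposited the scanner output, made per the submitters' processing notes with Agilent Feature Extraction 9.5.3, and the deposited intensity values used here are the processed signals, background-corrected and LOWESS-normalized between the dyes. The deposited series table of log ratios was not used. Groups follow the labels.

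In R 4.3.3, 1639 control spots per array and 1397 Cy3 spots in all marked as outliers were left out, spots were averaged on the log2 scale to 41000 probes, and the log2 signals were quantile normalized within each dye. A linear model with a mean for each miRNA was fitted over all 15 arrays in limma 3.58.1, with moderated two-sided tests whose prior variance followed the intensity. The contrast was miR-574-3p minus the mean of the other 4, with Benjamini-Hochberg adjustment over 30174 probes, which were well above background on at least 3 Cy3 arrays. A gene was its brightest probe.

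Named are the study's 8 candidates, the up to 12 largest rises and falls at 2-fold with a RefSeq symbol and no overlap, and the called members of 31 gene lists, or the 4 with the smallest p. Some genes that this rule names are not reported here. The genes and lists were chosen with earlier results of these data known. Alternatives were normexp (offset 50), the 75th percentile, other filters, outlier spots kept, no trend, blocks for replicate and slide, 3 against 12 arrays, the mean of a gene's probes, a signal of 100, and arrays or miRNAs left out. Figures were drawn with matplotlib 3.10.9. Probe positions are those of the files (NCBI36), and symbols are from RefSeq (GRCh38.p14).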

Additional observations from a re-analysis of the deposited data

Results flagged for a closer look

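The miR-574-3p contrast differed between the antagomir cells (Cy3) and the overexpressing cells (Cy5) of the same arrays for 19 of the 27 genes named as candidates or as largest changes, by the test of the difference itself (limma, adjusted p under 0.05). These genes were named from their Cy3 values or by the study, so that the count is no independent evidence. Values are the Cy3 minus the Cy5 log2 difference.

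Among the higher genes it was 2.66 for FGF9, 2.53 for SLC52A1, 2.52 for ZMAT3 and 2.06 for SLC34A1. It was 1.32 for C6orf52, 1.21 for ERH, 1.21 for CCNK, 1.16 for H2BC26 and 1.08 for ZYG11A. Among the lower genes it was -2.45 for TRIOBP, -2.15 for FGFRL1, -1.42 for MCM8, -1.36 for UBLCP1 and -1.09 for F7. It was -1.09 for ARHGAP35, -1.07 for ZNF213, -1.02 for MATCAP1, -0.96 for TANGO2 and -0.66 for CYP2S1.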

How the results depend on the processing

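The ERH difference kept its direction and its call under all alternatives, between 1.21 and 1.33 (log2), with 1.25 to 1.28 when single arrays were left out. Of the genes at 2-fold, 34 higher and 20 lower, normexp left 8 and 14, as its offset compresses dim signals by construction, and a signal minimum of 100 left 18 higher. Leaving out single arrays gave 27 to 41 higher and 20 to 36 lower genes. Genes called higher, 1016, became 454 with the slide as a fixed block (fitted without miR-766, alone on its slide), 1564 with it as a random block, and 632 to 1060 without single arrays. Genes called lower, 973, became 487, 1480 and 585 to 1070, and 643 with 3 against 12 arrays. Genes below all other arrays, 577, became 1078 without miR-766. In Cy5, 1 gene was called without a filter, 3 without miR-565, 0 to 9 without single arrays and 2357 with the fixed slide block. The channel difference, 249 genes, became 118 without miR-181d, 854 without miR-565, 102 without miR-629*, 153 without miR-766, 61 to 1074 without single arrays, and 5850 with the fixed slide block. In that block, miR-565 replicate 1 alone ties slide 1 to the others. The cause was not tested. AQP7, never called, changed sign to -0.0077 with normexp and -0.079 without miR-181d, and ran from -0.15 to 0.24 without single arrays. PRDM7 and TEX38 were called under some alternatives, and the other 24 of the 27 candidates and largest changes kept their direction and call wherever a test was run. List members, DOK6, SLC6A19 and the mitochondrial probes were not run under the alternatives.

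The replicate numbers were not taken as pairs in the main fit. Of 30 same-numbered pairs, 15 had deviations correlated over 0.1 (-0.21 to 0.33). The median correlation was 0.098 for same-numbered pairs and -0.049 for other pairs, which does not settle whether the numbers mark pairs. With the replicate block 1044 genes were higher, 1083 lower, 34 and 20 at 2-fold, ERH differed by 1.26 and PRDM7 was called (limma adjusted p = 0.0417).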
